A study of Mus musculus with 6 samples.

Results

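DNA replication and nucleotide synthesis were followed in BM Tregs through 41 genes of origin licensing, the replisome, nucleotide supply and chromatin assembly. The members were chosen by name among the 36930 features of the deposited tables, and each of the 41 names was found exactly once. BM Tregs of 3 CML mice were compared with those of 3 naive mice, with 1 library for each mouse. All mice were Foxp3-DTR-GFP animals of postnatal week 8, whose Foxp3 locus also expresses GFP and the human diphtheria toxin receptor, so the controls carry this allele too. The CML mice had received LSKs transduced with BCR-ABL1-GFP without irradiation and were at day 15 after CML induction, whereas the naive mice had received no leukemia cells. In CML mice, Foxp3+ Tregs and BCR-ABL1-GFP leukemia cells therefore both carry GFP. Values are RPKM (reads on a feature scaled by its length and by the size of the library), and where 3 values are given for a group they are those of replicates 1, 2 and 3 in this order.

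Replication of DNA starts at origins that are licensed in G1, when the origin recognition complex (Orc1 and Orc6 are subunits), Cdc6 and Cdt1 load the Mcm2 to Mcm7 helicase, and geminin (Gmnn) blocks relicensing. In S phase, Cdc45 and the GINS complex turn the loaded helicase into a moving fork, on which the polymerases, the sliding clamp Pcna and its loader RFC work, while RPA covers single strands. Ribonucleotide reductase and thymidylate synthase supply deoxynucleotides, and the CAF-1 complex puts histones on the new DNA. Most of these genes are transcribed periodically by E2F factors, and resting T cells hold them low until they are stimulated to divide.

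The promoters of a few members are shown. Mcm3, Mcm5 and Mcm6 were above the naive libraries in CML replicates 1 and 3. Chaf1a had the largest positive difference, and Rfc4 was lower in every CML library. The sequences come from RefSeq on GRCm38.p6, run 5′ to 3′ along the gene from 250 bases before the annotated start to 50 bases after it, and carry an E2F form (TTTCCCGC, TTTCGCGC, TTTGCCGC or TTTGGCGC, on either strand, with overlaps counted) in capitals. The windows are chr1:20820263-20820562 (minus strand) for Mcm3, chr8:75109259-75109558 (plus strand) for Mcm5, chr1:128359656-128359955 (minus strand) for Mcm6, chr17:56040166-56040465 (plus strand) for Chaf1a and chr16:23127681-23127980 (minus strand) for Rfc4.
Mcm3: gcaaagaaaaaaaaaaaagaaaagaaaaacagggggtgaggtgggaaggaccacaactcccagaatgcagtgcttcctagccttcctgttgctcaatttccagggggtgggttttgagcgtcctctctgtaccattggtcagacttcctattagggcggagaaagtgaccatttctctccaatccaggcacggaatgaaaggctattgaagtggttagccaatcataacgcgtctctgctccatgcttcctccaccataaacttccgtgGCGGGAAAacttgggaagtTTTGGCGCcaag
Mcm5: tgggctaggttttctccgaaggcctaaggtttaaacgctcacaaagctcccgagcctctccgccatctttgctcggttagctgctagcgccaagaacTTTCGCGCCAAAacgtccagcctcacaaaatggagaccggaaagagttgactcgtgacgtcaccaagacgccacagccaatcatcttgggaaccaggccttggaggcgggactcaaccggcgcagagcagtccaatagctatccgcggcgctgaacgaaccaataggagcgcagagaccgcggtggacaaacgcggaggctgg
Mcm6: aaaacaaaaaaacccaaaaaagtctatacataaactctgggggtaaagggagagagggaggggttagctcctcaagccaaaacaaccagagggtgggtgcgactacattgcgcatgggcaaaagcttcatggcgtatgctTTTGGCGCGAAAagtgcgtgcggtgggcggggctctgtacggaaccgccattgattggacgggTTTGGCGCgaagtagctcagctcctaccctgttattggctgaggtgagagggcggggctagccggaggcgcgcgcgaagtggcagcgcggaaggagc
Chaf1a: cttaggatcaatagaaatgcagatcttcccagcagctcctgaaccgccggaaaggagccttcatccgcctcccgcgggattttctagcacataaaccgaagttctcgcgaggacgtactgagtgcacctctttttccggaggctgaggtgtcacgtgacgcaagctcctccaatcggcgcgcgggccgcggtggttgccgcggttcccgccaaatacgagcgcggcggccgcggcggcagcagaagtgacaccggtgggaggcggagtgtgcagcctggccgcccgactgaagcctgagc
Rfc4: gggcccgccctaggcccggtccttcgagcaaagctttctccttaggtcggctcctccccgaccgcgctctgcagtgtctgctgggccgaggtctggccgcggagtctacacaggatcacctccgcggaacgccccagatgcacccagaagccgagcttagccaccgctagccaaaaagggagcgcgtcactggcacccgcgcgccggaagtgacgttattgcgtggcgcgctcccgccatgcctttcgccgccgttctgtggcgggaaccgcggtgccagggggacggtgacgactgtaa
Mcm3 held 2 E2F forms, both in the transcribed part and beginning at bases 20 and 39 after the start. Mcm5 held 2 overlapping forms that begin 153 and 149 bases before the start, and Mcm6 held 3, which begin 110, 106 and 47 bases before it. None of these letters stood in the Chaf1a and Rfc4 windows, which says nothing on the factor itself. Mcm2 was also above the naive libraries in CML replicates 1 and 3, but its promoter held no E2F form and is not shown. Mcm7, within the naive range in CML replicate 3, held an E2F form and is not shown either.

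Promoter windows were present for 33 of the 41 members (37 windows). An E2F form stood in 12 of the 37 windows (32.4%), compared with 2.26% of all 32851 windows of this length and 3.87% of the 11640 windows of genes tested here. A CCAAT box (CCAAT, either strand) stood in 59.5% of the member windows and in 37.8% of the windows of tested genes. The letters TTTGAA, known as the cell cycle genes homology region of mitotic genes, stood in 4 of the 37 member windows (10.8%). This was near the 12.7% of windows of tested genes. These letters stood in 15 of the 20 windows of a hand-written list of 22 mitosis genes (75%). Among the 32 tested members with a window, the 11 with an E2F form had a median log2 fold change of 0.26 between CML and naive Tregs, and the 21 without one had 0.31.

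The estimated depth was 829181 reads in CML replicate 2, 2286190 reads in CML replicate 3 and 5187987 to 9751911 reads in the other 4 libraries. CML replicate 2 also stood apart in that its 10 highest features held 50.7% of the summed RPKM, against 28.5% to 31.3% elsewhere. The members together held about 1891 reads in CML replicate 2 and 8166 to 23220 reads in the other libraries. In CML replicate 2, 11 members had fewer than 10 estimated reads and 4 were listed without reads, so its values for these genes are imprecise. All 8 Treg markers had reads in all libraries, with Foxp3 between 297 and 468 RPKM. Over all genes tested, the median log2 fold change between CML and naive Tregs was -0.18, and the values of the members stand against this shift. In bulk RNA, a change in the number of cells that express a gene and a change in RNA per cell cannot be told apart.

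The 41 members lay between 0 and 122 RPKM over the 6 libraries. Of these, 40 averaged 1 RPKM or more and were tested with limma on log2(RPKM + 1), and Orc1 was below this limit (1.17, 0 and 1.77 RPKM in CML against 1.17, 0.740 and 0.416 RPKM in naive libraries). None of the 40 passed an adjusted p of 0.05 with a fold of at least 1.5, compared with 24 of 13923 genes (0.172%), and the smallest adjusted p of a member was 0.282. At an unadjusted p under 0.05, 6 members were higher in CML Tregs (Mcm5, Mcm10, Prim1, Lig1, Chaf1a and Chaf1b; background 2.92%) and 1 was lower (Rfc4; background 6.77%). The log2 fold change was above 0 for 29 of the 40 members (background 35.7%), and the median over the members was 0.31. Every CML library lay above every naive library for 7 members (Mcm5, Mcm10, Fen1, Lig1, Tyms, Chaf1a and Chaf1b), or 17.5% of those tested, against a background of 4.84%. The opposite held for Gins4 and Rfc4, or 5% of those tested, against a background of 12.2%. For a single gene without overlap, the exact 2-sided permutation test of 3 mice against 3 gives p = 0.1, the smallest p of this design.

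**Figure D1:**
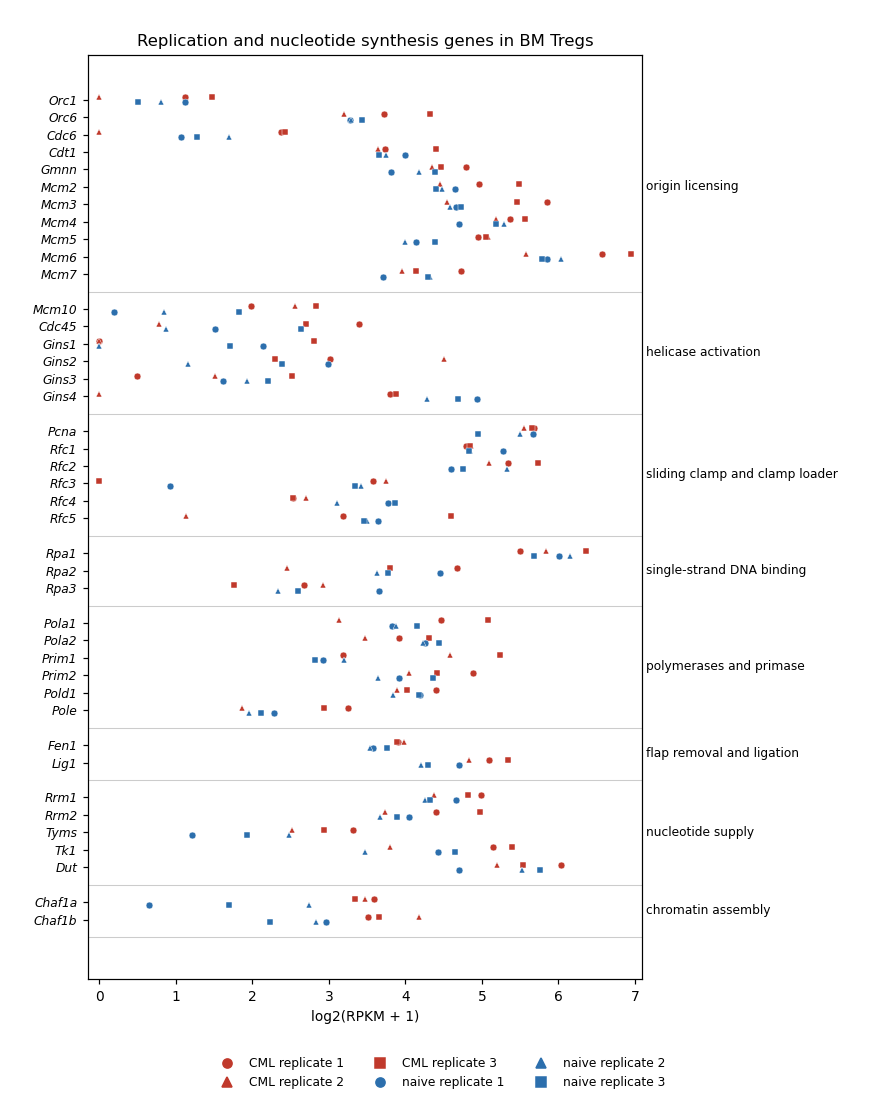
Level of each of the 41 members in each library, as log2(RPKM + 1), grouped by role, with CML libraries in red and naive libraries in blue. CML replicates 1 and 3 lie to the right of the naive libraries for most licensing genes, while CML replicate 2 lies among or left of them apart from Mcm5, and both Chaf1 genes are higher in all CML libraries.

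Among the licensing genes, Mcm5 had the smallest p. Mcm5, a subunit of the helicase ring, stood at 29.8, 32.8 and 32.3 RPKM in CML against 16.6, 14.9 and 19.95 RPKM in naive libraries. All CML values were close together and above all naive values. CML Tregs averaged 31.7 ± 1.596 RPKM and naive Tregs 17.2 ± 2.55 RPKM (both SD, n = 3), for a log2 fold change of 0.85 ± 0.23 (SE) and an adjusted p of 0.282 in limma. The log2 fold change stayed between 0.76 and 0.96 when each library was left out in turn.

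Mcm2, Mcm3 and Mcm6, of the same ring, were above the naive range in CML replicates 1 and 3 only. Mcm3 stood at 56.8, 22.3 and 43.0 RPKM in CML against 24.4, 23.1 and 25.5 RPKM in naive libraries. Mcm2 stood at 30.2, 20.9 and 43.7 RPKM in CML against 24.1, 21.3 and 20.1 RPKM in naive libraries. Mcm6 stood at 94.3, 46.9 and 122 RPKM in CML against 56.7, 64.6 and 54.1 RPKM in naive libraries. For Mcm3 and Mcm6, CML replicate 2 was below all naive libraries, whereas CML replicates 1 and 3 were well above them. The log2 fold changes were 0.62, 0.45 and 0.48 for Mcm3, Mcm2 and Mcm6 (limma adjusted p = 0.589, 0.646 and 0.666), and 0.995, 0.71 and 0.87 without CML replicate 2 (limma adjusted p = 0.172, 0.311 and 0.172). Mcm4 ran from 35.4 to 46.1 RPKM in CML Tregs and from 24.9 to 38.2 RPKM in naive Tregs. It too was above the naive range in CML replicates 1 and 3 (40.3 and 46.1 RPKM) and within it in CML replicate 2. Mcm7, which is needed in the same ring, ran from 14.5 to 25.5 RPKM and from 12.05 to 18.9 RPKM. The groups thus overlapped for both Mcm4 and Mcm7. The 6 ring subunits are thus not at equal levels in naive Tregs. Mcm6 was the highest (58.5 ± 5.43 RPKM, SD, n = 3), Mcm4 had 32.8 ± 6.98, Mcm3 24.3 ± 1.197, Mcm2 21.9 ± 2.06, Mcm5 17.2 ± 2.55 and Mcm7 16.6 ± 3.90 RPKM (SD, n = 3). In this order, the naive ranges of Mcm6 and Mcm4 were apart, those of Mcm2 (lowest 20.13) and Mcm5 (highest 19.95) were barely apart, and those of the other neighbours overlapped.

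The loading factors were low or overlapped. Cdc6, which loads the helicase, stood at 4.19, 0 and 4.37 RPKM in CML against 1.09, 2.24 and 1.41 RPKM in naive libraries. CML replicates 1 and 3 were above the naive libraries, while CML replicate 2 was listed without reads. In CML replicate 2, 3 reads on the longest annotated Cdc6 transcript correspond to 0.753 RPKM, a level below the lowest naive value. Orc6 ran from 8.14 to 19.1 RPKM in CML Tregs and from 8.69 to 9.78 RPKM in naive Tregs. The licensing partner Cdt1 ran from 11.5 to 20.1 and from 11.6 to 14.97 RPKM. Its inhibitor Gmnn ran from 19.4 to 26.7 and from 13.0 to 19.98 RPKM, and the lowest CML value was just inside the naive range. All 10 tested licensing genes had a log2 fold change above 0 (median 0.41), although 1 of them, Mcm5, had an unadjusted p under 0.05.

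Genes of helicase activation did not share a direction. Mcm10, which links the activated helicase to DNA polymerase alpha, stood at 2.96, 4.89 and 6.13 RPKM in CML against 0.142, 0.799 and 2.53 RPKM in naive libraries. All CML values were above all naive values (log2 fold change 1.51 ± 0.58 SE, adjusted p = 0.470 in limma). Gins4 went the other way, with 12.9, 0 and 13.7 RPKM in CML against 29.5, 18.5 and 24.9 RPKM in naive libraries. This was the lowest log2 fold change of all members (-2.08, standard error 0.96, limma adjusted p = 0.545), and without CML replicate 2 it was -0.80. The 3-read level of Gins4 in CML replicate 2 was 2.68 RPKM, below all naive values. Gins2, of the same complex, stood at 7.06, 21.6 and 3.92 RPKM in CML against 6.91, 1.23 and 4.23 RPKM in naive libraries, so CML replicate 2 was the highest of all and CML replicate 3 was within the naive range. Without CML replicate 2, the log2 fold change of Gins2 was 0.48 in place of 1.10. Gins1 and Gins3 stayed at or below 6.01 and 4.70 RPKM, with overlapping groups, and Gins1 was listed without reads in CML replicates 1 and 2 and in naive replicate 2. Cdc45 ran from 0.709 to 9.54 RPKM in CML Tregs and from 0.822 to 5.24 RPKM in naive Tregs.

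**Figure D2:**
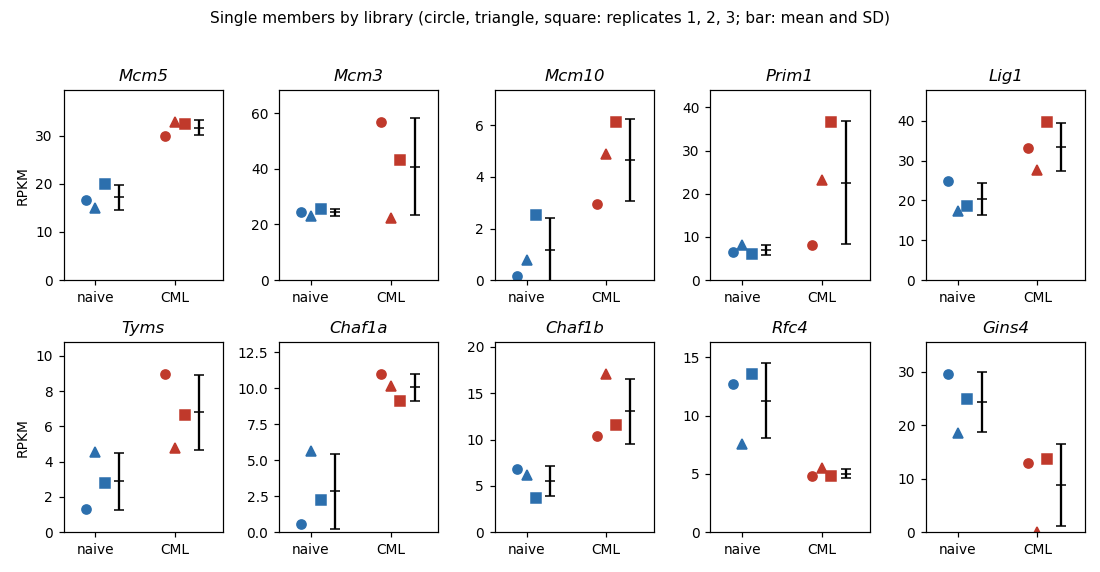
RPKM of 10 members in each library, with the mean and SD of each group of 3 (y axes start at 0). Mcm5, Mcm10, Lig1, Tyms, Chaf1a and Chaf1b are higher and Rfc4 and Gins4 lower in every CML library, whereas Mcm3 and Prim1 overlap through 1 CML library each.

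The clamp loader subunits behaved unevenly. Rfc4 stood at 4.80, 5.51 and 4.79 RPKM in CML against 12.7, 7.60 and 13.6 RPKM in naive libraries. All CML values were below all naive values, with means of 5.03 ± 0.41 and 11.3 ± 3.22 RPKM (SD, n = 3) and a log2 fold change of -0.99 ± 0.37 (SE) and an adjusted p of 0.461 in limma. About 6 reads support the value of CML replicate 2, 14 reads that of CML replicate 3 and 47 reads that of CML replicate 1. Rfc2, of the same loader, stood at 39.7, 33.3 and 52.5 RPKM in CML against 23.1, 39.1 and 26.0 RPKM in naive libraries (log2 fold change 0.51, limma adjusted p = 0.592). Rfc5 stood at 8.11, 1.18 and 23.2 RPKM in CML against 11.5, 10.3 and 9.95 RPKM in naive libraries. The CML values of Rfc5 lay on both sides of a narrow naive range, and the log2 fold change of -0.56 turned to 0.36 without CML replicate 2. Rfc3 was listed without reads in CML replicate 3 and ran from 0.900 to 12.4 RPKM in the other libraries. The large subunit Rfc1 ran from 26.8 to 28.1 RPKM in CML Tregs and from 27.4 to 37.8 RPKM in naive Tregs.

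Pcna, the sliding clamp and a common S phase marker, stood at 50.3, 46.0 and 49.5 RPKM in CML against 49.8, 44.2 and 30.0 RPKM in naive libraries. The groups overlapped, and the difference was small (log2 fold change 0.26 ± 0.23 SE, adjusted p = 0.719 in limma). The RPA subunits showed no separation either. Rpa1 ran from 44.2 to 81.1 RPKM in CML Tregs and from 50.5 to 70.5 RPKM in naive Tregs. Rpa2 ran from 4.45 to 24.6 RPKM and from 11.4 to 20.9 RPKM, and Rpa3 from 2.39 to 6.59 RPKM and from 4.05 to 11.6 RPKM. All 3 RPA genes had log2 fold changes below 0 (-0.05, -0.31 and -0.41), of which those of Rpa1 and Rpa2 turned positive under some of the other settings.

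Of the polymerase and primase genes, the catalytic primase subunit Prim1 had the largest difference. It stood at 8.07, 23.1 and 36.6 RPKM in CML against 6.61, 8.18 and 6.05 RPKM in naive libraries. CML replicates 2 and 3 were far above the naive libraries, and CML replicate 1 was within their range (log2 fold change 1.35 ± 0.52 SE, adjusted p = 0.470 in limma). Its partner Prim2 ran from 15.5 to 28.5 RPKM in CML Tregs and from 11.5 to 19.5 RPKM in naive Tregs. The 2 subunits of DNA polymerase alpha went in different directions, with log2 fold changes of 0.27 for the catalytic subunit Pola1 (7.74 to 32.8 and 13.2 to 16.8 RPKM) and -0.41 for Pola2 (10.1 to 18.8 and 17.7 to 20.7 RPKM). Pole, of the leading strand polymerase, stood at 8.51, 2.64 and 6.64 RPKM in the CML libraries and 2.86 to 3.85 RPKM in naive Tregs. Pold1, of the lagging strand polymerase, ran from 13.8 to 20.1 RPKM and from 13.4 to 17.2 RPKM.

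Both genes that finish the lagging strand were higher in every CML library. After scaling each library to 1 common 75th percentile, this held for 1 of the 2. The ligase gene Lig1 stood at 33.1, 27.6 and 39.7 RPKM in CML against 25.0, 17.4 and 18.6 RPKM in naive libraries, which gave a log2 fold change of 0.69 ± 0.25 (SE) and an adjusted p of 0.442 in limma. The flap endonuclease gene Fen1 stood at 13.9, 14.8 and 13.8 RPKM in CML against 10.96, 10.6 and 12.6 RPKM in naive libraries. Its difference was small (log2 fold change 0.30, limma adjusted p = 0.726), but the spread within each group was small as well.

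The 5 nucleotide supply genes all had log2 fold changes above 0 (0.26 to 1.06), with an unadjusted p above 0.05 for each of them. Tyms, which makes thymidylate, stood at 8.97, 4.75 and 6.66 RPKM in CML against 1.32, 4.55 and 2.80 RPKM in naive libraries. The groups did not overlap, but CML replicate 2 and naive replicate 2 nearly met (log2 fold change 1.06 ± 0.50 SE, adjusted p = 0.549 in limma). The small subunit of ribonucleotide reductase, Rrm2, stood at 20.2, 12.3 and 30.6 RPKM in CML against 15.6, 11.7 and 13.9 RPKM in naive libraries. Thymidine kinase 1 (Tk1) stood at 34.3, 12.9 and 41.2 RPKM in CML against 20.5, 10.1 and 24.1 RPKM in naive libraries. In both genes CML replicates 1 and 3 were above all naive libraries and CML replicate 2 was within their range. The large reductase subunit Rrm1 ran from 19.8 to 30.7 RPKM in CML Tregs and from 18.2 to 24.2 RPKM in naive Tregs. Dut, which removes dUTP, ran from 35.7 to 64.5 RPKM and from 24.9 to 53.4 RPKM.

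The chromatin assembly genes had the highest median log2 fold change of the roles (1.44). Chaf1a, the large subunit of CAF-1, stood at 10.99, 10.1 and 9.11 RPKM in CML against 0.564, 5.67 and 2.25 RPKM in naive libraries. The CML values were nearly equal, and the naive values were lower and spread widely (log2 fold change 1.77 ± 0.57 SE, adjusted p = 0.372 in limma). Chaf1b stood at 10.4, 17.1 and 11.6 RPKM in CML against 6.80, 6.15 and 3.68 RPKM in naive libraries (log2 fold change 1.10 ± 0.38 SE, adjusted p = 0.421 in limma). Here the library with the fewest reads, CML replicate 2, was the highest. When each library was left out in turn, the log2 fold change was between 1.25 and 2.29 for Chaf1a and between 0.88 and 1.25 for Chaf1b. Without naive replicate 3, neither gene had an unadjusted p under 0.05 (limma adjusted p = 0.756 for Chaf1a and 0.793 for Chaf1b).

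**Figure D3:**
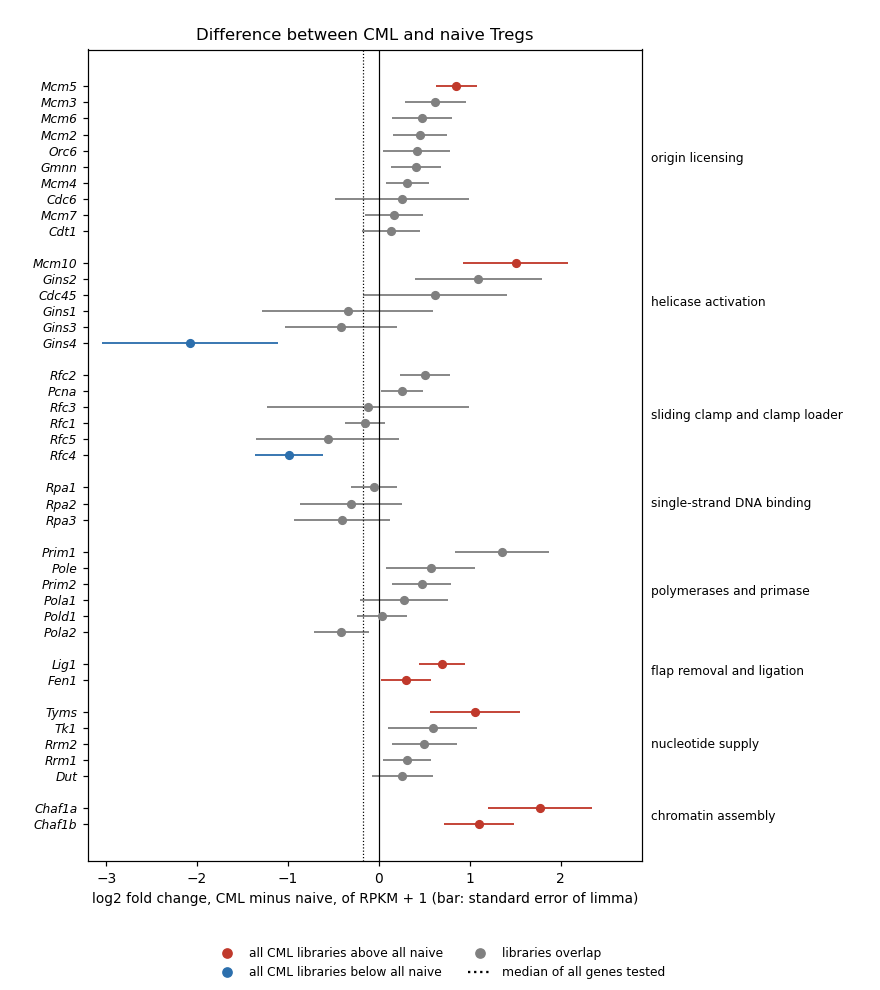
Log2 fold change (CML minus naive, of RPKM + 1) of the 40 tested members with the standard error of limma, by role, with members whose groups do not overlap in red (higher) or blue (lower) and the median of all genes tested as a dotted line. Estimates of the licensing, nucleotide supply, ligation and chromatin assembly genes lie right of 0, while those of the clamp loader, GINS and RPA genes lie on both sides or left of it.

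The CML libraries were then compared one at a time with the range of the naive libraries. CML replicate 1 was above all naive libraries for 29 of the 40 members (72.5%) and below them for 7 (17.5%). Over all genes tested, 27.1% were above and 31.5% below. CML replicate 3 was above the naive libraries for 28 members (70.0%) and below for 4 (10%), compared with 33.6% above and 33.8% below over all genes. CML replicate 2 was above them for 10 members (25.0%) and below for 14 (35.0%), compared with 18.6% above and 55.5% below over all genes. The share of members above the naive range was thus far lower in CML replicate 2 than in the other CML libraries, while fewer of them lay below the naive range than of all genes in the same library. Without CML replicate 2, every CML library was above every naive library for 22 members (55% of those tested, background 13.9%) and below for 2 (background 15.9%). At an unadjusted p under 0.05, 13 members were then higher (background 6.03%) and 2 lower (background 6.59%), and none passed the adjusted p and the fold of 1.5 (background 0.115%, smallest adjusted p = 0.172 in limma). The log2 fold change was then above 0 for 32 members (background 47%). Licensing genes made up 8 of these 22 members, which is all tested licensing genes apart from Cdt1 and Mcm7. After scaling each library to 1 common 75th percentile, 0 members passed the adjusted p and the fold (background 0.381%), and 8 were higher (background 4.14%) and 1 lower (background 6.59%) at an unadjusted p under 0.05. Every CML library was then above every naive library for 12 members (background 6.49%) and below for 3 (background 11.2%), and 30 members had a log2 fold change above 0 (background 40.6%).

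**Figure D4:**
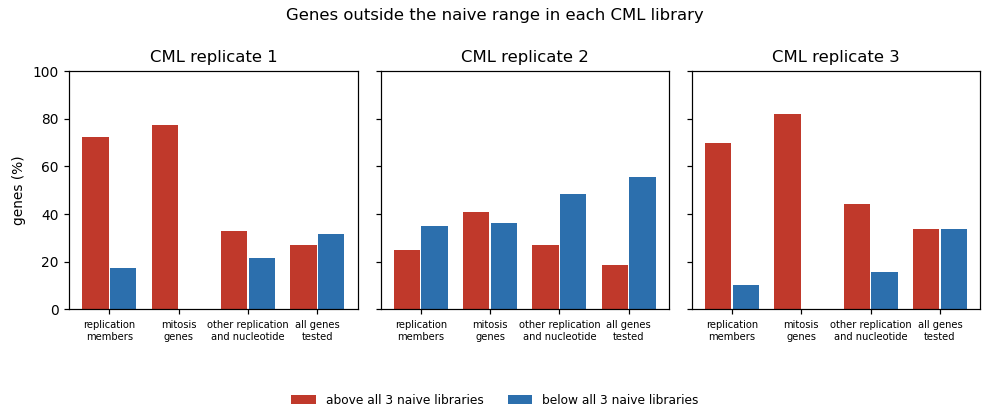
Share of genes (%) above (red) or below (blue) all 3 naive libraries in each CML library, for the replication members, the mitosis genes, the other replication and nucleotide genes and all genes tested. In CML replicates 1 and 3, 72.5% and 70.0% of the members are above the naive range, in CML replicate 2 25.0%.

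Mitosis genes, a list of 22 genes kept for comparison, followed the same libraries. The list was not limited to genes that act only after S phase. CML replicates 1, 2 and 3 were above all naive libraries for 17, 9 and 18 of these 22 genes and below them for 0, 8 and 0. Over all genes, 27.1%, 18.6% and 33.6% were above and 31.5%, 55.5% and 33.8% below. The median log2 fold change of the mitosis genes was 0.59, which is 0.77 above that of all genes. At an unadjusted p under 0.05 in limma, 5 of them were higher (Cenpf, Cdk1, Prc1, Top2a and Cenpe) and 0 lower. Those 5 are 22.7% of the list, against 2.92% of all genes, and 0 passed the adjusted p of limma. Cenpf, a kinetochore gene, stood at 10.2, 9.52 and 13.5 RPKM in CML against 4.97, 4.04 and 4.53 RPKM in naive libraries. The mitotic kinase gene Cdk1 ran from 10.8 to 28.4 RPKM in CML Tregs and from 3.90 to 8.54 RPKM in naive Tregs, and the spindle gene Prc1 from 18.0 to 24.8 and from 11.2 to 12.1 RPKM, so neither overlapped. Mki67, the gene of Ki-67, stood at 83.2, 44.3 and 103 RPKM in the CML libraries and 43.4 to 46.7 RPKM in naive Tregs. Top2a, which untangles replicated DNA, had 52.1, 34.7 and 65.8 RPKM and 27.1 to 32.7 RPKM, without overlap (limma adjusted p = 0.470). In CML replicate 2, Mki67 was thus within the naive range, while Top2a, Cdk1, Cenpf and Prc1 were above it. The members Mcm5, Lig1, Chaf1a and Chaf1b were also above it. In this library, 9 of the 22 mitosis genes were above the naive range and 8 below, compared with 10 and 14 of the 40 members.

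E2f1, an activator of these genes, stood at 2.13, 4.17 and 14.5 RPKM in CML against 2.37, 0.492 and 0.942 RPKM in naive libraries. CML replicate 1 was below naive replicate 1, so the groups overlapped (log2 fold change 1.56, limma adjusted p = 0.526). Of the 13 E2F and pocket protein genes, 0 had an unadjusted p under 0.05 in limma, and 7 (53.8%, compared with 35.7% of all genes) had a log2 fold change above 0.

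The other genes of DNA replication and nucleotide synthesis, were 71 genes outside the members. Of the 70 tested, 37 (52.9%, compared with 35.7% of all genes) had a log2 fold change above 0, and their median of 0.02 was 0.20 above that of all genes, a smaller distance than the 0.49 of the members. At an unadjusted p under 0.05, 2 were higher (2.86%, against 2.92% of all genes) and 3 lower (4.29%, against 6.77%), and 0 passed the adjusted p of limma. The lowest p was that of Mcmbp, whose protein binds Mcm rings in the nucleus. Mcmbp stood at 32.0, 31.9 and 37.9 RPKM in CML against 67.4, 69.7 and 68.8 RPKM in naive libraries, which gave a log2 fold change of -1.001 ± 0.17 (SE) and an adjusted p of 0.109 in limma. Its values were far apart between the groups and close together within each group, CML replicate 2 included. Pole3, an accessory subunit of the leading strand polymerase, was the higher gene among the fork genes (23.1, 19.3 and 54.9 RPKM in CML, 5.28, 18.2 and 9.60 RPKM in naive Tregs), with an adjusted p of 0.426 in limma.

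Among the other nucleotide supply genes, Dguok, the mitochondrial deoxyguanosine kinase, was lower in every CML library, with 19.1, 13.5 and 9.50 RPKM against 31.2, 28.1 and 23.8 RPKM (limma adjusted p = 0.358). The guanine nucleotide enzyme Impdh1 was also lower in every CML library, with 20.8, 19.6 and 25.8 RPKM against 41.7, 29.6 and 31.9 RPKM (limma adjusted p = 0.477). Samhd1, which degrades deoxynucleotides, was far more abundant than any member on the RPKM scale, with 397 to 592 RPKM in CML Tregs and 523 to 597 RPKM in naive Tregs. For the 29 tested genes of this list, the median log2 fold change was 0.01, compared with 0.50 for the 5 members of nucleotide supply.

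Markers of other marrow cells were read beside these results, since erythroid and myeloid precursors divide as well. The summed level of 8 erythroid markers was 97.2, 32.8 and 171 RPKM in CML replicates 1, 2 and 3 and 5.01 to 25.5 RPKM in naive Tregs. This sum was above the naive range in all CML libraries, as were 2 of the 8 markers (Hbb-bs and Hbb-bt). The sum had the same order as the share of mitosis genes above the naive range (CML replicate 3, then 1, then 2). The median level of the tested members, as log2(RPKM + 1), had this order too (4.36, 4.16 and 3.84). The share of members above the naive range was 72.5%, 25.0% and 70.0% in CML replicates 1, 2 and 3. Replicates 1 and 3 were thus nearly equal by this share. Whether these orders are linked was not tested. The erythroid transcription factor gene Klf1 was at 0 in CML replicate 2 and in all naive libraries, at 1.74 RPKM in CML replicate 1 and at 2.32 RPKM in CML replicate 3. The 7 myeloid progenitor markers summed to 13.3, 54.7 and 139 RPKM in the CML libraries and to 16.6 to 27.0 RPKM in the naive libraries, with Mpo at 84.6 RPKM in CML replicate 3. The 8 neutrophil markers summed to 1.54, 158.4 and 98.4 RPKM in the CML libraries and to 5.79 to 42.0 RPKM in the naive libraries, with Ly6g and Mmp8 at 0 in all libraries. In CML replicate 1, the sums of the neutrophil and myeloid progenitor markers were below all naive libraries. The single progenitor markers differed there. Mpo (3.29 RPKM) was below all naive libraries, while Elane (3.95 RPKM) and Kit (2.60 RPKM) were above them and the other progenitor markers were within the naive range. The labels call these Tregs FACS-purified, and the flow cytometry of the study defined Tregs as CD4+ Foxp3-GFP+ cells, a gate that would leave out erythroid and myeloid cells. Whether this gate was used for the RNA libraries is not given in the sources used here, and leukemia cells carry GFP as well. The part of erythroid, neutrophil and myeloid progenitor cells in the member values was not tested. The sums of the monocyte (45.6 to 87.9 and 66.9 to 107 RPKM), B cell (3.18 to 8.80 and 8.42 to 10.7 RPKM), CD8 and NK cell (66.1 to 79.9 and 36.7 to 74.9 RPKM) and megakaryocyte markers (0 to 1.85 and 1.80 to 7.77 RPKM) overlapped between CML and naive Tregs.

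**Figure D5:**
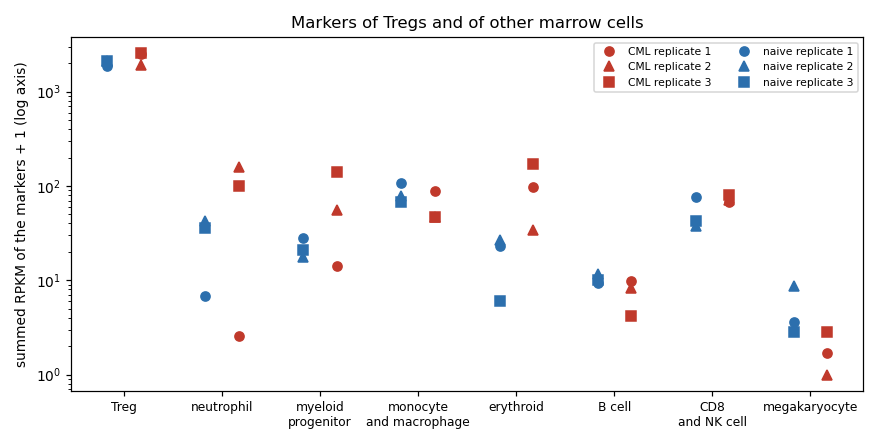
Summed RPKM of the markers of each cell type plus 1, on a log axis, by library (CML red, naive blue). Treg markers are at 1862 to 2545 RPKM in all libraries, and the erythroid sum is higher in all CML libraries than in the naive libraries.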

How the data were processed

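RNA of BM Tregs was prepared by the authors with the SMART-Seq v4 kit, assembled in SeqMan NGen and analyzed in ArrayStar. Genome builds GRCm38 and mm10 are named in the submitters' processing notes. The deposited values, 1 for each feature and library, were read as RPKM, a unit the paper does not name. In each library, values multiplied by the length of microRNA and small nucleolar RNA genes came out as multiples of 1 step (within 0.05 steps for 30.7% to 59.8% of products up to 20 steps, against 10% by chance), and the step gave the estimated reads. Any unit that divides by length would show such steps. These estimates and floors of 3 reads cover counting error only. A deposited value of 0.001 was set to 0.

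Since RPKM are not counts, the DESeq2 analysis of the authors was replaced by limma 3.58.1 in R 4.3.3 (lmFit and eBayes with a trend) on log2(RPKM + 1). The 13923 genes that averaged 1 RPKM or more were fitted, with Benjamini-Hochberg adjustment over all of them. Fold changes on this scale understate those of low genes. Groups and replicates follow the sample labels, and equal replicate numbers belong to different mice. The fit was tested on simulated data. The other steps used Python 3.11.15, and transcript lengths came from GENCODE M21 (GRCm38).

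The members and lists were chosen with earlier results of these data known. Every tested member is described. Members given in each library are the 12 with the smallest unadjusted p, those lower in every CML library, the 3 with the lowest log2 fold change, and Pcna, Mcm2, Rrm2, Tyms and Tk1. Other members given in each library, and Cenpe, were chosen after their values were seen. Genes of the other lists are named at an unadjusted p under 0.05 (at most 3 in each direction), with Mki67, Top2a, E2f1 and Samhd1. Of the genes so chosen, 1 is not reported here. Alternatives covered the pseudocount, the filter, scaling, library weights, a replicate block and each library left out.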

Additional observations from a re-analysis of the deposited data

How the results depend on the processing

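No member passed the adjusted p under any of the 12 alternatives. The median log2 fold change of the members stayed between 0.24 and 0.50, and 0.45 to 0.57 above the median of all genes. The number of members at an unadjusted p under 0.05, 7 in all, was 11 with quantile normalization and 2 to 15 when 1 library was left out (4 without CML replicate 3, 4 without naive replicate 1, 2 without naive replicate 3 and 15 without CML replicate 2). Over all genes, 1348 of 13923 were under this p, and 1499 with quantile normalization. Leaving out a library gave 1896 without CML replicate 1, 1757 without CML replicate 2 and 1616 without CML replicate 3. Of the members, 12.5% were higher and 2.5% lower without CML replicate 1 (background 3.45% and 10.2%). These shares were 7.5% and 2.5% without CML replicate 3 (background 2.64% and 8.97%). Of the 7, Mcm5 was under this p with each library left out, while Chaf1a and Chaf1b were not without naive replicate 3. The remaining genes lost it in most of these fits. Prim1 was under this p only without CML replicate 1, and Mcm10 only without CML replicate 1 or naive replicate 3. Lig1 was under it only without CML replicate 2 or naive replicate 1, and Rfc4 only without CML replicate 2 or naive replicate 2. Members without overlap, 9 in all, numbered 15 after scaling to 1 common 75th percentile and 16 after quantile normalization. Over all genes, 2375 were without overlap, against 2466 and 2506 under these scalings. When 1 library was left out, such members numbered 10 to 24, with 14 without CML replicate 3 and 24 without CML replicate 2. Over all genes, leaving out CML replicates 1, 2 and 3 gave 4490, 4161 and 4248. Without CML replicate 1, 20% of the members lay wholly above the naive libraries and 5% wholly below (background 9.09% and 23.2%). Without CML replicate 3, these shares were 22.5% and 12.5% (background 7.88% and 22.6%). Of the other replication and nucleotide genes, 5 in all, 9 had an unadjusted p under 0.05 with quantile normalization and 8 with library weights, and 1 to 10 when 1 library was left out (10 without CML replicate 2, 1 without naive replicate 1 and 2 without naive replicate 3). Over all genes, 24 passed the adjusted p, 53 after quantile normalization, 53 when scaled to equal 75th percentiles, 45 with library weights, 1 without the filter on low values, and 0 to 17 when 1 library was left out (0 without any one of the naive libraries and 6 without CML replicate 3). With the replicate number as a block, 1 gene passed the adjusted p, and 7 members had an unadjusted p under 0.05, with Gins4 (limma adjusted p = 0.516) in place of Rfc4 (limma adjusted p = 0.610). Deviations of libraries with the same number had correlations of -0.0048, -0.0016 and -0.019. Those of libraries with different numbers ran from -0.042 to 0.052, so no pairing by number was seen. A batch shared by libraries of equal number was not tested. The cause of these shifts was not tested.

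The log2 fold changes of 28 members kept their direction throughout. Those of the other 12 turned as follows. Under pseudocount 0.1, Cdc6 was at -0.38. With quantile normalization, Gins1, Gins3 and Rfc3 were at 0.070, 0.0086 and 0.21. With the same 75th percentile, Rpa1 was at 0.017, and with library weights Rpa2 was at 0.30. When 1 library was left out, the range was -0.16 to 1.06 for Cdc6, -0.11 to 0.27 for Cdt1, -0.060 to 0.33 for Mcm7, -1.28 to 0.12 for Gins1, -0.92 to 0.094 for Gins3, -0.94 to 1.10 for Rfc3, -1.38 to 0.36 for Rfc5, -0.28 to 0.15 for Rpa1, -0.83 to 0.29 for Rpa2, -0.15 to 0.82 for Pola1, -0.11 to 0.14 for Pold1 and -0.059 to 0.48 for Dut.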
